A study of Mus musculus with 6 samples.

Results

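The genes described here make triglyceride in the liver cell, coat the droplets it is stored in, or break it down again. They are the 10 genes Gpam, Agpat2, Lpin1, Lpin2, Mogat1, Dgat1, Dgat2, Plin2, Pnpla2 and Pnpla3, chosen by name from the pathway and found on the arrays by their gene symbol. Each array held log2 signals of 204531 probe sets, most exons of a gene having at least 1, and 15045 genes had the 2 or more probe sets above the signal minimum that a gene mean needed. All 10 genes were among them, with 144 of their 145 probe sets. Plin2 carries its older name Adfp in the platform annotation.

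Liver RNA of male mice aged 6 to 8 weeks was compared between 3 control samples, labelled wild type, and 3 samples of mice homozygous for a mutation of Dhx32 (Dhx32-/-), which encodes an RNA helicase of the DEAH-box family. Each of the 6 samples was snap-frozen tissue on 1 array. The labels do not say that each sample came from a separate mouse or whether the mice were littermates, so p-values measure the spread between these samples, which are called livers here. No treatment, feeding state or hour of collection is given in the labels, and what the mutation removes is not stated there either. The study asked which transcripts and exons differ in liver when Dhx32 is mutated.

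Triglyceride is built on a glycerol backbone. A first acyl chain is added by glycerol-3-phosphate acyltransferases such as Gpam, a further chain by Agpat2, and the lipins then remove the phosphate to give diacylglycerol, to which Dgat1 or Dgat2 adds the last chain. The product is stored in droplets coated with Plin2, and Pnpla2 is the lipase that starts its release. Lipin 1 also acts in the nucleus with the coactivator Ppargc1a, and its transcript in liver is known to respond to fasting and glucocorticoids.

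Dhx32 itself read 8.28 to 8.85 in the controls and 6.35 to 7.04 in the mutants, so the groups did not overlap. Array medians lay between 6.73 and 6.95. Mutant replicate 1 stood apart, with correlations of 0.935 to 0.940 with the other arrays over all probe sets, so results are also given without it where it decides them. Hepatocyte markers, 8 of 10 measured, had mean levels of 13.1 to 13.2 in the controls and 13.1 to 13.3 in the mutants, and Alb read at least 13.6 on every array. Levels are log2 signals throughout, differences are mutant minus control, and a fold is a power of 2 of such a difference. Since liver is a mixture of cells, a smaller share of a cell type and less RNA per cell cannot be told apart.

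None of these 10 genes passed the test between mutant and control livers. In limma, a linear model with moderated variances and Benjamini-Hochberg adjustment over all genes, 0 of 10 had an adjusted p under 0.05, against 1 of 15045 genes (0.00665%), and 0 of 10 reached an unadjusted p under 0.05, against 4.21% of all genes. The mean was lower in mutants for 7 members and higher for 3, where 52.5% of all genes had a lower mean. Their median difference was -0.08, beside -0.01 over all genes. The spread between samples of the same group was large for 3 of them, Lpin1, Lpin2 and Mogat1, and their intervals are correspondingly wide.

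**Figure D1:**
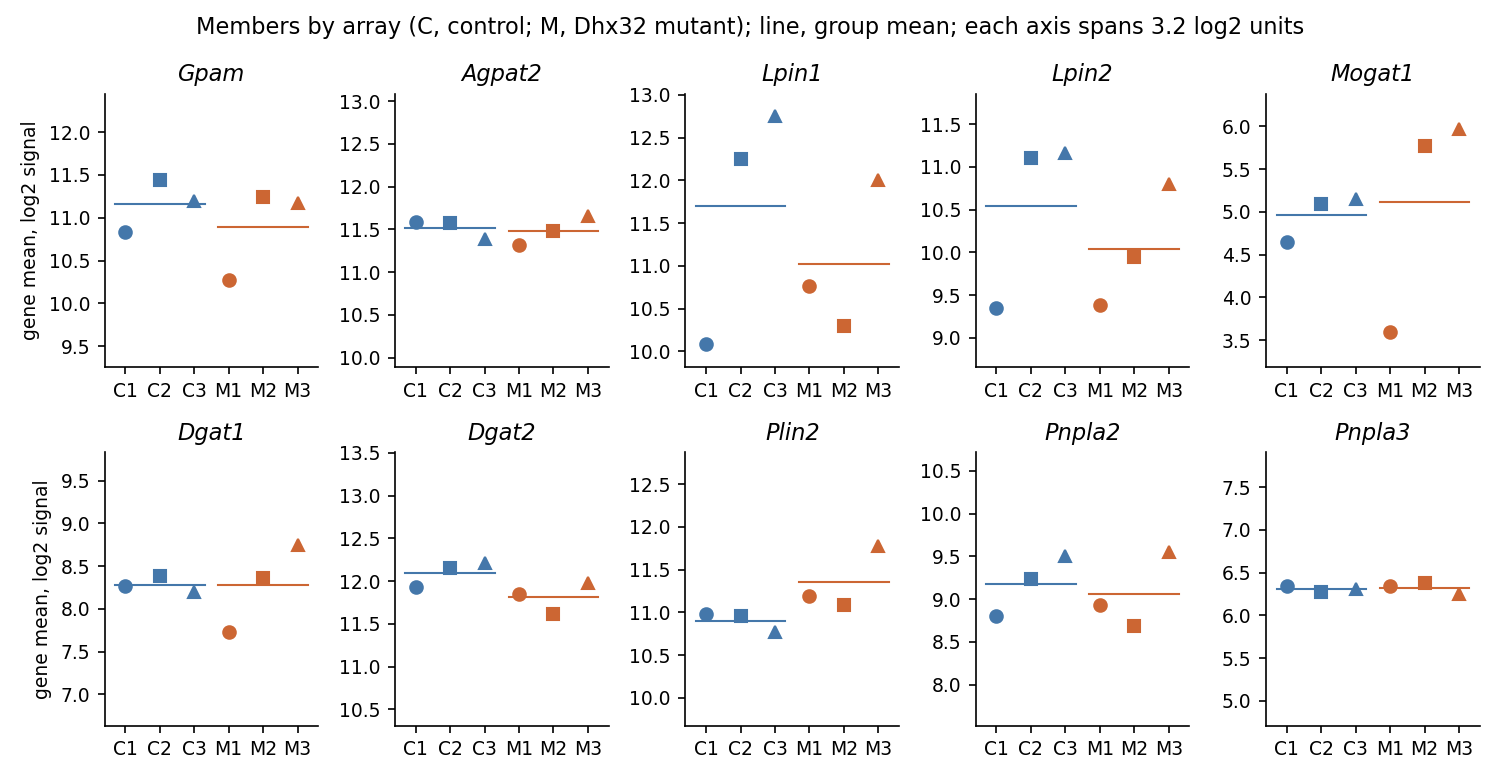
Gene means (log2 signal, vertical axis) of the 10 genes on each of the 6 arrays (horizontal axis; C, control; M, mutant; the number is the replicate), with a line at each group mean; every panel spans the same number of log2 units. Lpin1 and Lpin2 spread widely in both groups, Mogat1 spreads in the mutants, and Pnpla3 lies flat.

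The acyltransferases of the first steps did not separate the groups. Gpam, the mitochondrial glycerol-3-phosphate acyltransferase, read 10.8, 11.4 and 11.2 in the controls and 10.3, 11.2 and 11.2 in the mutants. Mutant replicate 1 was the lowest array and the other mutants lay within the controls. The difference was -0.26 (SE 0.28, 95% interval -0.92 to 0.39; limma adjusted p = 0.943), and without that liver it was 0.05. In 23 of the 28 Gpam probe sets that same liver was lowest. Agpat2, which encodes a 1-acylglycerol-3-phosphate acyltransferase and is mutated in a human form of congenital lipodystrophy, read 11.6, 11.6 and 11.4 in controls and 11.3, 11.5 and 11.7 in mutants. The groups overlapped fully, and the difference of -0.03 (SE 0.16) had an interval of -0.39 to 0.33.

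Lpin1 and Lpin2 varied widely in both genotypes. Lpin1 read 10.1, 12.3 and 12.8 in control replicates 1, 2 and 3, and 10.8, 10.3 and 12.0 in mutant replicates 1, 2 and 3. The lowest and the highest array were both controls, 6.36-fold apart, and the mutants spanned 3.26-fold. Lpin2 read 9.35, 11.1 and 11.2 in the controls and 9.38, 9.94 and 10.8 in the mutants. Control replicate 1 and mutant replicates 1 and 2 were thus the low livers for both genes, and control replicates 2 and 3 and mutant replicate 3 the high ones. Only 19 of 15045 genes had a larger SD among the controls than Lpin1 (1.42), and 55 had a larger one than Lpin2 (1.03), where the median over all genes was 0.17.

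The pattern was shared by nearly every probe set of both genes. In all 20 Lpin1 probe sets the 3 lowest arrays were control replicate 1, mutant replicate 1 and mutant replicate 2, and the same was true of 23 of 24 Lpin2 probe sets. The exception, probe set 5015691 of Lpin2, had the lowest control mean of the gene, 6.69, and the lone higher mean in mutants (0.06). These probe sets share the same RNA, so they are not separate comparisons.

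Against this spread the difference between genotypes was small. It was -0.67 (SE 0.69, 95% interval -2.25 to 0.91; 1.59-fold lower) for Lpin1 and -0.50 (SE 0.52, interval -1.70 to 0.70; 1.41-fold lower) for Lpin2, each with a limma adjusted p = 0.943. Control replicate 1 decides the size of both. Without it, Lpin1 differed by -1.48 and Lpin2 by -1.09 (limma adjusted p = 0.739 for Lpin1 and 0.744 for Lpin2), whereas without control replicate 3 the values were -0.14 and -0.18. Lpin1 differed by -1.16 without mutant replicate 3 and by -0.31 without mutant replicate 2. Lpin2 differed by -0.17 without mutant replicate 1.

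The same livers were the lowest 3 for 6 of the 10 clock genes measured, whose transcripts follow the hour of the day. Dbp, a clock output factor whose transcript cycles strongly in liver, read 7.29, 8.93 and 8.71 in the controls and 6.90, 6.91 and 8.74 in the mutants. Nr1d1, a repressor within the clock, read 9.13, 10.9 and 10.7 in the controls and 7.30, 8.14 and 10.505 in the mutants. The other clock genes with this order were Nr1d2, Tef, Per1 and Per3. It was not particular to clock genes: 5 of the 12 fasting and feeding genes measured had it too (Pck1, Cpt1a, Srebf1, Pklr and Fasn). Other pathway genes also had this order, such as Gpat4, Gpd1, Plin4, Plin5, Ces1f, Ces1g, Aadac, Lipc, Ppara and Ppargc1b. So did Cyp2e1 and Reln of the cell type markers. Further listed genes, such as Agpat1, Acsl1 and Fitm1, had another order. Neither the count in those lists nor the share of the order over all genes was computed. Among the clock genes the order differed in Per2, Arntl, Npas2 and Clock. Arntl was lowest in mutant replicate 3 (7.34) and highest in mutant replicate 2 (8.44). Over the 10 clock genes measured, mean levels ran from 7.67 to 8.27 in the controls and from 7.24 to 8.17 in the mutants. With Dbp as a covariate in the fit, the genotype difference was 0.20 for Lpin1 and 0.17 for Lpin2. The sign thus turned for both, though neither passed in limma. Of the 10 members, 3 in place of 7 had a lower value in mutants. Dbp itself differed by -0.79 (SE 0.57) between genotypes, so this covariate can also take up part of a genotype difference. Whether the clock phase sets the lipin levels was not tested. Lpin3, the third lipin, read 6.12, 6.49 and 6.46 in the controls and 6.30, 6.47 and 6.56 in the mutants. Control replicate 1 and mutant replicate 1 were lowest there too and mutant replicate 3 highest, over a smaller range.

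**Figure D2:**
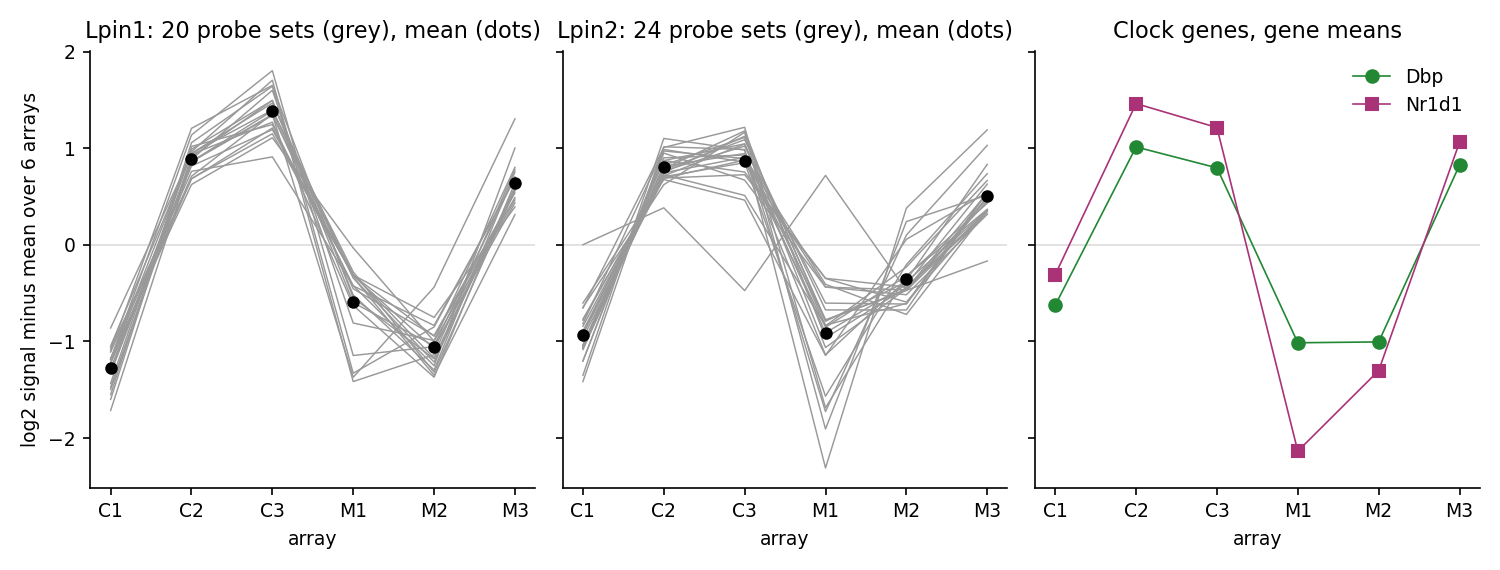
Log2 signal minus its mean over the 6 arrays (vertical axis) for the probe sets of Lpin1 and Lpin2 (grey lines, 1 per probe set; dots, their mean) and for the gene means of Dbp and Nr1d1, by array (C, control; M, mutant); lines join values of 1 feature and imply no order. Control replicate 1 and mutant replicates 1 and 2 lie low in all 3 panels.

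Since the lipins varied together, their start regions are shown. RefSeq (GRCm38.p6) gave windows of 250 bases before to 50 after a start for 8 of the 10 genes, 11 windows in all. The letters CACGTG, the E-box that clock and carbohydrate-response factors bind, reading alike on both strands, were in 7.15% of all 32851 windows and in 2 of these 11. They began 9 bases before the start in the upstream window of Lpin2 (chr17:71183282-71183531, plus strand) and 4 bases before it in Plin2. The window listed for Lpin1 (chr12:16610967-16611216, minus strand), which lies inside the gene and downstream of its outermost start, did not hold them. The 250 bases before each start are given 5′ to 3′ with CACGTG in capitals.
Lpin1: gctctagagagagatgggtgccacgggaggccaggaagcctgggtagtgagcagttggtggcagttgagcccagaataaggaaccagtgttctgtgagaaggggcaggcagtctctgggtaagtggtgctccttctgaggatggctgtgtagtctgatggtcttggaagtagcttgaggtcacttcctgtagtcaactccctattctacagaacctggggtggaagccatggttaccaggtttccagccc
Lpin2: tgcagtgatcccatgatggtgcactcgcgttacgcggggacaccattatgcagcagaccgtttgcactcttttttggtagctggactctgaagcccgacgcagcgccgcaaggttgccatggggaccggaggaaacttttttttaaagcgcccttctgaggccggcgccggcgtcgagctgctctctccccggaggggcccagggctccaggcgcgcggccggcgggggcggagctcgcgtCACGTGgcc
The D-box letters TTATGTAA, bound by Dbp, were in 0 of the 11 windows (0.938% of all). The letters TGACGTCA, a cyclic AMP response element, were in 1, that of Pnpla3, 46 bases before its start (1.79% of all), and the direct repeat that PPAR receptors bind was in 0 (0.0396% of all). Both strands were searched, and CACGTG and TGACGTCA share their inner letters. These matches describe letters only.

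Neither gene of the last acylation step separated the groups. Dgat1, a diacylglycerol acyltransferase of the endoplasmic reticulum, read 8.27, 8.38 and 8.19 in the controls and 7.72, 8.36 and 8.74 in the mutants. The control values lay close together, and the mutants lay below, among and above them. Its difference was -0.01 (SE 0.25, interval -0.58 to 0.57), 0.27 without mutant replicate 1 and -0.24 without mutant replicate 3. In 15 of 18 probe sets mutant replicate 1 was lowest, and in 14 mutant replicate 3 was highest.

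Dgat2, the unrelated enzyme that catalyses the same reaction and esterifies mainly newly made fatty acids, read 11.9, 12.2 and 12.2 in the controls and 11.9, 11.6 and 12.0 in the mutants. Mutant replicates 1 and 2 lay below every control and mutant replicate 3 just above control replicate 1. The difference was -0.28 (SE 0.16, interval -0.66 to 0.09; 1.22-fold lower; limma adjusted p = 0.943). All 12 Dgat2 probe sets had a lower mean in mutants, by 0.13 to 0.38, and in 3 of them the groups did not overlap (4.44% of all probe sets, with the mutants lower). Without 1 array at a time the difference stayed negative, from -0.36 to -0.18, and with array weights it was -0.40. Dgat2 and Pnpla2 lie on chromosome 7, as does Dhx32. Whether this bears on their values was not tested.

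Mogat1, which makes diacylglycerol from monoacylglycerol and is scarce in healthy liver, split the mutants. It read 4.65, 5.09 and 5.15 in the controls, and 3.60, 5.77 and 5.97 in mutant replicates 1, 2 and 3. Mutant replicate 1 lay below every control and the other mutants above every control, 5.18-fold apart at most. That liver was lowest in 3 of the 5 kept probe sets, at 3.09, 3.24 and 3.00, close to the signal minimum of 3. In the brightest probe set, 4385739, it read 5.71, within the controls (5.19 to 6.37). The size of the split thus rests on values near that minimum. Only 58 of 15045 genes had a larger SD among the mutants than its 1.32. The difference of 0.15 (SE 0.56, interval -1.13 to 1.43) hides this split. Without mutant replicate 1 it was 0.91 (limma unadjusted p = 0.00203, adjusted p = 0.710), and without mutant replicate 3 it was -0.28. The gene was dim: of 6 probe sets 1 was under the signal minimum of 3 in both groups (2.28 and 2.71), and another, with a control mean of 3.22, lay just inside it.

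Pparg and Fitm1 divided the mutants in the same way, and were picked after their values were seen. Pparg, the nuclear receptor that drives fat storage and is known to raise Mogat1 in fatty liver, read 6.76, 7.30 and 7.14 in controls and 6.27, 7.90 and 8.18 in mutants. Fitm1, a membrane protein of the endoplasmic reticulum that binds triglyceride, read 9.19, 8.67 and 8.92 in controls and 6.37, 10.3 and 9.93 in mutants. In each, mutant replicate 1 was the lowest of the 6 livers and mutant replicates 2 and 3 the highest. Their differences were 0.38 (SE 0.45) and -0.07 (SE 0.89), and 0.97 and 1.18 without mutant replicate 1 (limma adjusted p = 0.710 for Pparg and 0.497 for Fitm1). The split was not particular to these genes, as Lipa, Rab18 and Pdk4 among the listed genes had it too. Its share over all genes was not computed, and a link between Pparg and Mogat1 was not tested. Mutant replicate 1 also had the highest acute phase transcripts: over the 8 measured of 10 listed, the controls had mean levels of 10.25 to 10.55 and the mutants of 11.2 to 13.2, and Lcn2 read 13.6, 11.2 and 10.1 in the mutants. The part of inflammation in the low Mogat1 of that liver was not tested.

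**Figure D3:**
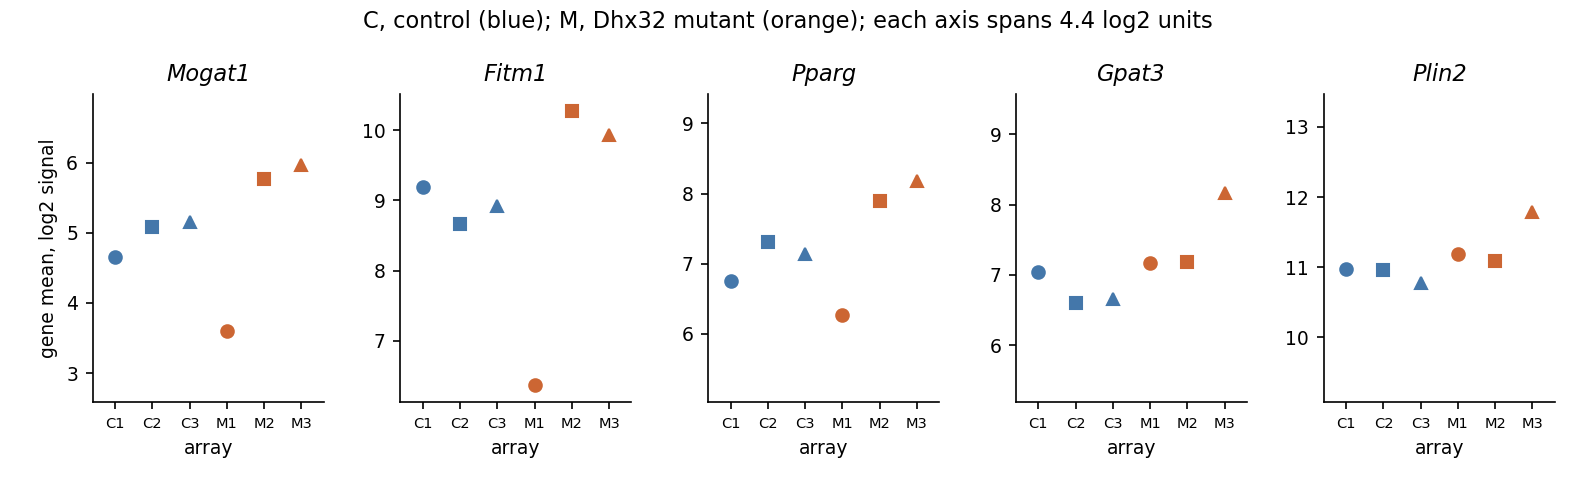
Gene means (log2 signal, vertical axis) of Mogat1, Fitm1, Pparg, Gpat3 and Plin2 by array (horizontal axis; C, control; M, mutant), each panel spanning the same number of log2 units. In Mogat1, Fitm1 and Pparg mutant replicate 1 lies below all other livers and mutant replicates 2 and 3 above the controls, whereas Gpat3 and Plin2 are above the controls in all mutants.

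Plin2, the main droplet coat protein of the liver cell, was the member that came nearest to separating the groups. It read 10.98, 10.96 and 10.77 in the controls and 11.19, 11.08 and 11.78 in the mutants. Every mutant lay above every control, though mutant replicate 2 by little, and mutant replicate 3 stood well above the rest. Plin2 was the lone member whose groups did not overlap with the mutants higher, which 5.14% of all genes did, and 0 of 10 had non-overlapping groups with the mutants lower (4.32%). The difference was 0.45 (SE 0.21, interval -0.03 to 0.92; 1.36-fold higher), with a limma unadjusted p = 0.0626 and adjusted p = 0.943. An exact two-sided permutation test gave p = 0.1, the smallest it can give with 3 arrays against 3. All 8 probe sets had a higher mean in mutants, by 0.28 to 0.80. Without mutant replicate 3 the difference was 0.23 and without any other array 0.38 to 0.58. With mutant replicate 1 left out it was 0.53 (limma unadjusted p = 0.0470, adjusted p = 0.9998). It was 0.59 with Dbp as a covariate.

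The genes whose pattern over the 6 arrays was most like that of Plin2, by the root mean square difference of deviations from each gene's own mean, were Pcdhb14 (0.0640 log2 units), Blvrb (0.0714) and Map10 (0.0726). Pcdhb14 encodes a protocadherin and Blvrb a biliverdin reductase. Being picked for the pattern of Plin2, all 3 were highest in mutant replicate 3 as well. Map10 was dim, at 3.85 to 4.70.

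Fat cell markers were examined beside Plin2, which adipocytes share. Of 11 measured, 8 had a higher mean in mutants, 3 of them at a limma unadjusted p under 0.05 (2.01% of all genes), and in 2 the groups did not overlap (5.14%). Their mean level was 6.33 to 6.53 in the controls and 6.45 to 6.92 in the mutants. The adipocyte hormones Lep and Adipoq were dim, at 4.11 to 4.49 and 3.57 to 4.56 in controls, and 4.85 to 5.09 and 4.68 to 4.93 in mutants. Both lay higher in every mutant. Cfd, the serum protease adipsin, read 6.39, 6.06 and 5.97 in controls and 6.24, 6.95 and 7.97 in mutants, and was highest in mutant replicate 3, as Plin2 was (0.91, SE 0.39; limma unadjusted p = 0.0449, adjusted p = 0.943). Plin1 and Fabp4, the droplet coat and the fatty acid carrier of fat cells, are named here as defining markers. They overlapped between the groups and differed by 0.10 (SE 0.17) and 0.03 (SE 0.18). In mutant replicate 3, where Cfd was highest, Retn (5.44), Cidec (6.75) and Pparg (8.18) were also the highest of the 6 livers. Plin1 (5.889, against 5.899 in control replicate 1) and Slc2a4 (5.40) were the lowest there. The markers with a lower mean in mutants were Lipe, Slc2a4 and Car3. The part of such cells in the Plin2 values was not tested.

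The patatin-like lipases overlapped between the groups. Pnpla2, adipose triglyceride lipase, read 8.81, 9.23 and 9.51 in the controls and 8.93, 8.69 and 9.55 in the mutants. Its order followed that of the lipins in part, with control replicate 1 and mutant replicates 1 and 2 as the low livers, in 7 of 12 probe sets by themselves. The difference was -0.13 (SE 0.27, interval -0.73 to 0.48), and 0.17 with Dbp as a covariate. Probe set 4913363 went the other way, with a control mean of 7.58 ± 0.04 (SD, n = 3) against 8.08 ± 0.04 (SD, n = 3) for the mutants. Its groups did not overlap and its spread was small, but the probe set did not pass (limma unadjusted p = 0.0623, adjusted p = 0.994), and its position in the gene was not analysed here.

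Pnpla3, whose human form carries a common variant linked to fatty liver and whose transcript is known to respond to feeding, was the flattest member. It read 6.34, 6.27 and 6.30 in the controls and 6.35, 6.37 and 6.25 in the mutants. All 6 livers lay within 0.13 log2 units, a range that 99.7% of all genes exceeded. The difference was 0.02 (SE 0.14, interval -0.30 to 0.33). The gene was rather dim, its mean lying below the median of every array. Its probe sets did not move together: 5 had a lower and 5 a higher mean in mutants, from -0.31 to 0.37. Such shifts offset each other in the gene mean.

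**Figure D4:**
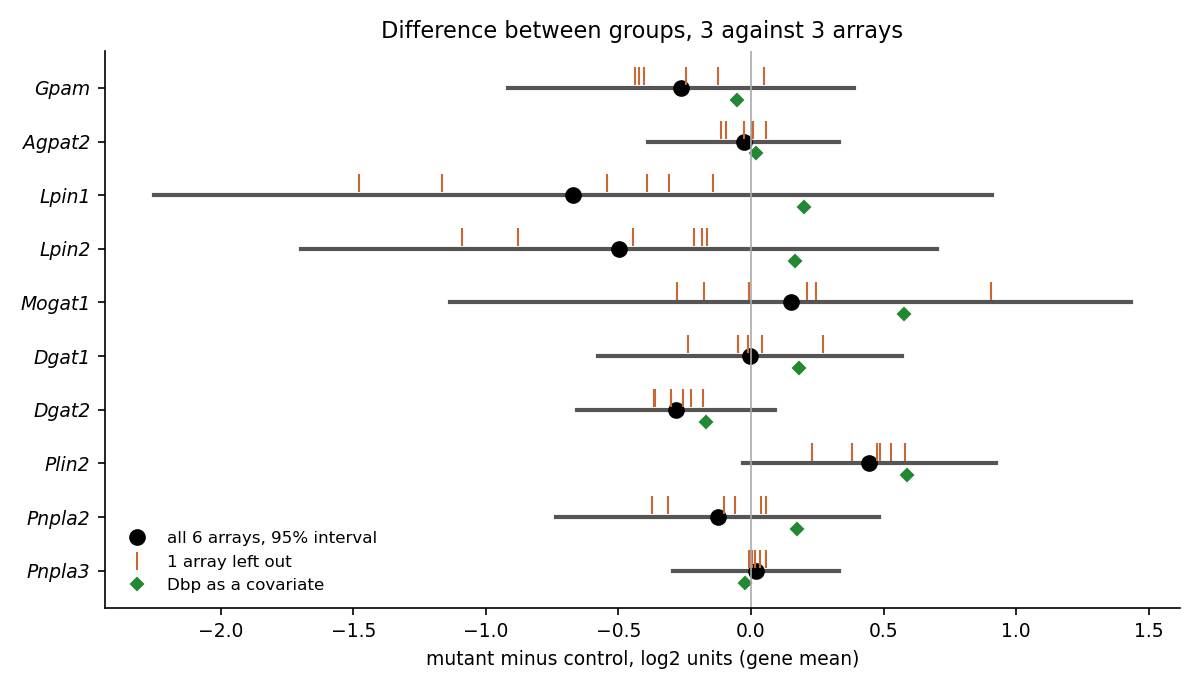
Mutant minus control in log2 units (horizontal axis) for each gene, 3 against 3 arrays: dot and bar, difference and its 95% interval in limma; ticks above, the difference with 1 array left out; diamond below, the difference with Dbp as a covariate. Every interval crosses 0, those of the lipins and Mogat1 are widest, and Plin2 and Dgat2 keep their side under each array left out.

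At the level of single probe sets none of the 144 passed in limma, as none of 191663 did (0%). At an unadjusted p under 0.05, 1 was higher in mutants (1.9% of all probe sets) and 0 were lower (2.18%). The 1 was probe set 5414569 of Plin2, whose control mean was 6.20 ± 0.21 (SD, n = 3) and mutant mean 6.996 ± 0.19 (SD, n = 3). This was the dimmest probe set of the gene. The groups did not overlap in 4 probe sets with the mutants lower (4.44% of all) and in 5 with the mutants higher (4.01%), shares of the 144 that were below those of the background. A lower mean in mutants was seen in 112 of the 144, and in 53.16% of all probe sets (median difference -0.27, beside -0.03 over all probe sets). Of the 112, 26 belonged to Gpam, 20 to Lpin1 and 23 to Lpin2, and probe sets of a gene share their RNA.

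The largest shift of a single probe set was compared with that of its gene. Probe set 5607481 of Lpin1 differed by -1.18 (SE 0.80; gene mean -0.67) and probe set 4915602 of Lpin2 by -1.05 (SE 0.64; gene mean -0.50). In Gpam, probe set 4792599 differed by -0.77 (SE 0.47; gene mean -0.26), and in Mogat1 probe set 4385739 by 0.71 (SE 0.48; gene mean 0.15). The largest shifts in Dgat2, Dgat1, Pnpla3 and Agpat2 were -0.38, -0.38, 0.37 and 0.27, where the gene means differed by -0.28, -0.01, 0.02 and -0.03. That of Agpat2 thus had the opposite sign to its gene. Each had a limma adjusted p = 0.994.

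**Figure D5:**
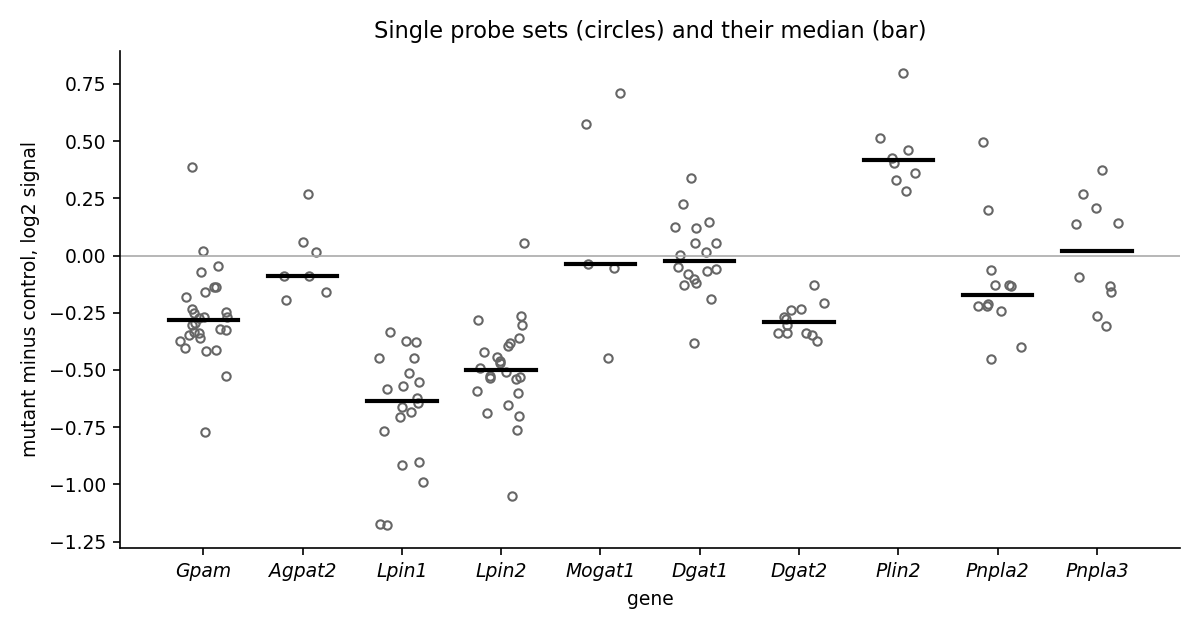
Mutant minus control in log2 signal (vertical axis) for each kept probe set (circles) of the 10 genes (horizontal axis), with the median as a bar. Lpin1 and Dgat2 circles all lie below 0 and Plin2 circles all above it, while Pnpla3 and Dgat1 circles scatter around 0.

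Exon usage asks whether an exon's signal shifts away from that of its gene's other exons, and none of these genes passed a test for it. In the diffSplice F-test of limma 0 of 10 passed, against 0.21% of 14310 genes, and 0 of 10 reached an unadjusted p under 0.05, against 4%. Unadjusted p-values ran from 0.831 (Pnpla3) upwards, and each adjusted p was 1. By the Simes method 0 of 10 passed too. The F-test shares 1 variance over all probe sets of a gene, so spread between samples lowers what it can detect in any of the 10. That spread was widest in Lpin1, Lpin2 and Mogat1. These p-values therefore do not show that exon usage was unchanged.

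Other genes of the pathway were read from 4 lists, of which 51 of 55 genes were measured. In limma 0 of the 51 passed. At an unadjusted p under 0.05, 1 was higher (2.01% of all genes) and 3 were lower (2.2%), and 28 had a lower mean and 23 a higher one (median -0.03). The higher gene belonged to the acyltransferases and the 3 lower ones to the regulators.

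Among the 13 measured acyltransferases and genes of acyl and glycerol supply, 7 had a lower mean and 6 a higher one (median -0.01). Gpat3, a glycerol-3-phosphate acyltransferase of the endoplasmic reticulum known from fat cells, read 7.03, 6.60 and 6.66 in controls and 7.17, 7.19 and 8.16 in mutants. All mutants lay above all controls (5.14% of all genes did so), with mutant replicate 3 highest, as for Plin2. It differed by 0.74 (SE 0.28; limma unadjusted p = 0.0291, adjusted p = 0.943), and by 0.41 without mutant replicate 3. Gpat4, the liver's other microsomal form, differed by -0.33 (SE 0.27), and the acyl-CoA synthetases Acsl5 and Acsl3 by -0.33 (SE 0.26) and 0.35 (SE 0.30).

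Of 15 other droplet proteins, 9 had a higher mean and 6 a lower one (median 0.04). Cidec, which fuses droplets, differed by 0.53 (SE 0.27), at 5.41 to 6.20 in controls and 6.02 to 6.75 in mutants. Cidea, its relative, differed by 0.23 (SE 0.16), the droplet enzyme Hsd17b11 by -0.18 (SE 0.17) and the small GTPase Rab18 by 0.25 (SE 0.25). No one of them had an unadjusted p under 0.05, and in each the groups overlapped.

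Of 12 lipolysis genes and cofactors, 8 had a lower mean and 4 a higher one (median -0.21). Abhd5, the protein that activates Pnpla2, differed by 0.46 (SE 0.24), with control replicate 1 (9.24) within the mutants (9.03 to 9.55) and the other controls at 8.50 and 8.54. Without control replicate 1 it differed by 0.69. The esterases Aadac and Ces1g differed by -0.63 (SE 0.39) and -0.83 (SE 0.55), with mutant replicate 1 lowest in both, at 10.95 and 8.93. Hepatic lipase (Lipc) differed by -0.32 (SE 0.21).

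The regulators had the most negative median, -0.45 over 11 genes, with 7 lower and 4 higher. Cebpa, a transcription factor of liver and fat cell differentiation, read 10.37, 9.999 and 10.30 in the controls and 9.54, 9.61 and 9.80 in the mutants. It differed by -0.57 (SE 0.16; limma unadjusted p = 0.00802, adjusted p = 0.943), and by -0.68 to -0.50 with 1 array left out. Mlxipl, the carbohydrate-response factor that drives lipogenic genes, read 9.18 to 9.54 in controls and 8.91 to 9.02 in mutants, a difference of -0.45 (SE 0.16). In both genes all mutants lay below all controls, 2 of the 11 regulators where 4.32% of all genes did so. The coactivators Ppargc1b and Ppargc1a differed by -0.73 (SE 0.24) and -1.10 (SE 0.48), and their groups overlapped. With Dbp as a covariate Cebpa, Mlxipl, Ppargc1b and Ppargc1a differed by -0.57, -0.36, -0.46 and -0.64. The median of the list was -0.15 with Dbp as a covariate and -0.12 without mutant replicate 1.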

How the data were processed

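RNA of 3 control and 3 Dhx32-/- liver samples was measured on Affymetrix exon arrays. The deposited values are log2 signals per probe set, and, per the submitters' processing notes, Affymetrix Expression Console 1.1, RMA, Partek 6.4 and the build mm9 were used, with no role stated for each. RMA normalizes arrays to each other and compresses differences of dim probe sets. Of 204531 probe sets, 185264 had 1 gene symbol and the others were not used.

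Probe sets with a mean log2 signal of at least 3 in a group were kept, and a gene was the mean of at least 2 of them (3 for exon usage). Genes and probe sets were tested with limma 3.58.1 (R 4.3.3) on all 6 arrays, and exon usage with its diffSplice, with Benjamini-Hochberg adjustment over all features and a threshold of 0.05. Exact two-sided permutation tests were added for the 10 genes. The gene level and exon usage steps were also run on simulated data. The simulated noise was independent for each gene or probe set, so exon usage was not tested under spread that probe sets of a gene share. The alternatives were other signal minimums, the median over probe sets, other array scalings, limma with trend and robust settings, array weights, Dbp as a covariate, a replicate block and each array left out. Same-numbered controls and mutants deviated together with correlations of 0.01, -0.12 and 0.13. These values show no pairing by number, but with 3 arrays a group they cannot exclude one.

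The members and lists were chosen with earlier results of these data known. Named besides the 10 genes are up to 4 genes of smallest p per list, the 3 genes most like the member of smallest p, the probe set of largest difference per member, and Dbp and Nr1d1. Other genes are named where a result turns on them. Promoter windows are from RefSeq (GRCm38.p6). Dgat1 and Dgat2 had no entry. With 3 arrays a group, their number limits the precision.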

Additional observations from a re-analysis of the deposited data

How the results depend on the processing

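The 10 genes had 0 limma adjusted p-values under 0.05 under every setting, as did the 51 other pathway genes. Their probe sets (signal minimums, scalings, replicate block, arrays left out) and exon usage (the same without the scalings, and Simes) also had 0 under the settings run for them. At an unadjusted p under 0.05 there were 0 of the 10, and 1 each with quantile normalization, median centring, array weights and Dbp as a covariate, and 0 to 2 with 1 array left out. A lower mean in mutants was seen in 7, in 3 with Dbp as a covariate, and in 4 to 8 with 1 array left out. With Dbp as a covariate the sign turned for Lpin1 (0.20), Lpin2 (0.17), Pnpla2 (0.17), Dgat1 (0.18), Agpat2 (0.021) and Pnpla3 (-0.023). Dgat1 also turned with the median over probe sets (0.14), quantile normalization (0.036), median centring (0.040) and array weights (0.076), Agpat2 with median centring (0.018) and array weights (0.0025), Mogat1 with the median over probe sets (-0.054) and Pnpla3 at a minimum of 5 (-0.0043). With 1 array left out, the ranges that crossed 0 were -0.44 to 0.049 for Gpam, -0.11 to 0.057 for Agpat2, -0.28 to 0.91 for Mogat1, -0.24 to 0.27 for Dgat1, -0.37 to 0.056 for Pnpla2 and -0.0085 to 0.055 for Pnpla3. Plin2 and Dgat2 kept their sign in all settings. With the replicate block, 9 other pathway genes in place of 4 had an unadjusted p under 0.05, and 6 member probe sets in place of 0 were lower at that level (32 without control replicate 1). Over all genes 1 was called, and 0 to 3 in the alternatives. For exon usage 30 genes were called, 18 with the replicate block and 13 to 58 with 1 array left out. The causes were not tested.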

Other observations

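Transcripts that respond to feeding and fasting were read beside these genes, since the labels give no feeding state. Of 12 measured, 8 had a lower mean in mutants and 4 a higher one (median -0.13), and 0 passed in limma. Scd1 is the desaturase that makes the oleate used in triglyceride. It read 13.1, 13.4 and 13.4 in the controls and 12.0, 12.7 and 13.0 in the mutants, a difference of -0.72 (SE 0.25). All mutants lay below all controls for Scd1, 1 of the 12 genes, as in 4.32% of all genes. Fgf21, a fasting hormone of the liver, differed by 0.53 (SE 0.22), Ppargc1a by -1.10 (SE 0.48) and Pklr, the liver pyruvate kinase, by -0.64 (SE 0.36). Igfbp1 and Angptl4 were picked after their values were seen. Igfbp1, a binding protein that insulin represses, read 7.10, 8.99 and 9.36 in the controls and 9.17, 9.89 and 9.02 in the mutants. Angptl4, a lipase inhibitor induced by fasting, read 8.19, 10.03 and 10.27 in the controls and 10.1, 9.18 and 10.6 in the mutants. Control replicate 1 was the lowest liver for both, and for Fasn, 3 of the 12 genes. The feeding state of the animals was not tested.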
